A study of Mus musculus with 54 samples.

Results

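The myogenic regulatory factors are 4 related basic helix-loop-helix transcription factors, Myod1, Myf5, Myog (myogenin) and Myf6 (also called MRF4). They were taken by name, through the NCBI gene numbers of these 4 mouse symbols. They are 4 of 19653 genes with a count in any library, and all 4 were among the 14727 genes with enough counts to be tested. The cells were H2K mouse myogenic progenitors, which grow under γ-interferon with a temperature-sensitive T antigen and fuse into myotubes once switched to differentiation medium with horse serum. There were 6 lines. Wildtype and EMD-/y progenitors came from mice with and without the X-linked gene for emerin, a LEM-domain protein of the inner nuclear membrane whose loss causes Emery-Dreifuss muscular dystrophy (EDMD). The other 4 lines were EMD-/y progenitors transduced with a lentivirus for wildtype emerin (+EMD, labelled EMD) or for the EDMD-causing emerin mutants S54F, Δ95–99 (labelled Del9599) and Q133H. The transduced lines were selected with puromycin at doses that differed between lines, so +EMD shares transduction and selection with the mutants and wildtype does not. By the methods of the authors, the mutant lines were also plated more densely than wildtype and EMD-/y for this RNA. The part of plating density in the results was not tested. Poly-A RNA of each line was sequenced after 0, 24 and 48 h of differentiation (day 0, 1 and 2), with 3 libraries in each of 18 groups.

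MyoD and Myf5 are the determination factors of skeletal muscle. They mark progenitors and open muscle genes for expression. Myogenin is switched on as progenitors commit to differentiation and leave the cell cycle, and Myf6 comes late, in myotubes and fibres. All 4 proteins bind E-boxes (CANNTG) as heterodimers with E proteins, Id proteins take the E proteins away from them, and Mef2 factors bind and activate muscle promoters together with them.

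In wildtype progenitors Myog rose 4.91-fold in the first 24 h, Myf6 rose between 24 and 48 h, and Myod1 and Myf5 did not pass the test on either day. Myog at 24 h was 13.1-fold lower in Q133H and 3.91-fold lower in Δ95–99 than in wildtype. In both mutants the called rise of Myog was the one between 24 and 48 h, and its difference from the wildtype step held in Q133H but not in Δ95–99 with the closest pair of libraries counted as 1 replicate. Myf5 was higher than in wildtype in +EMD and Δ95–99 on all 3 days, by 3.50- to 7.58-fold, and in Q133H on the last 2 days. All Myf5 libraries of EMD-/y and S54F also lay above those of wildtype on each day. Of these differences only S54F at 48 h was called, and not with the closest pair as 1 replicate. None of the 4 genes was called different between EMD-/y and wildtype on any day, where 6.74% to 7.84% of all genes were called.

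Myod1 lies at chr7:46376474-46379092 of mm10 (GRCm38), Myog at chr1:134290004-134292548, Myf5 at chr10:107482908-107486927 and Myf6 at chr10:107492848-107494723, with 5920 bases between Myf5 and its neighbour Myf6. The 250 bases before the start sites of Myog and Myf5 are shown, the members with a window in the promoter set used here. Myog and Myf5 went different ways in these cells. The sequences are from RefSeq on GRCm38.p6. They run from chr1:134289754-134290003 on the plus strand for Myog and from chr10:107486135-107486384 on the minus strand for Myf5, with E-boxes and the MEF3 motif TCAGGTTTC in capitals. The start site used for Myf5 lies inside the annotated span of the gene, so its window does too:
Myog: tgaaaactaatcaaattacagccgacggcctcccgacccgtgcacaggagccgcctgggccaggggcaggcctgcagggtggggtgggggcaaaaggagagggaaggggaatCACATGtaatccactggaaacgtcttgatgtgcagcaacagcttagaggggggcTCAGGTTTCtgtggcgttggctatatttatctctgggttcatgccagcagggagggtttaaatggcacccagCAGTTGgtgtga
Myf5: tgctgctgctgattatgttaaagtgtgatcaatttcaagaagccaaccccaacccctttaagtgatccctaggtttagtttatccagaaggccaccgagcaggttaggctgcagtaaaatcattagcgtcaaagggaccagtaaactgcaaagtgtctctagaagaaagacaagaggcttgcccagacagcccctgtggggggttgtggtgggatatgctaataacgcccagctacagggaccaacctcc

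The Myog window held 2 E-boxes, CACATG at -138 to -133 and CAGTTG at -12 to -7 from the start site, and the MEF3 motif at -84 to -76. The search read both strands, the motifs do not overlap, and no match to the MEF2 consensus was found in these letters. The Myf5 window held no match to any of these motifs. Of 32851 promoter windows of this length, 66.22% held at least 1 E-box, 31.81% at least 2, 11.14% CAGTTG, 2.919% the MEF2 consensus and 0.3866% the MEF3 motif. An E-box pair is thus common among promoters and the MEF3 motif is rare. A match is a description of the letters and not a measured binding site. Likewise, a window without a match can still hold a site whose letters depart from the consensus. Myod1 and Myf6 had no window in the promoter set used here.

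Libraries held 17086515 to 20215349 counts, and all values below are normalized counts, which are counts divided by the size factor of the library. The targeted gene was looked at first. Emd had 983 to 2034 counts in each wildtype library and 0 to 3 counts in each library of the other 5 lines. That shows the EMD-/y background of all 5, and since +EMD and the mutants had the same near-absence, these Emd counts do not check the transgenes. Muscle markers were high in every library, with a summed level of 33660 to 203400 for 7 myogenic genes, against 10.1 to 113 for the fibroblast, 11.8 to 64.6 for the endothelial and 17.2 to 344 for the immune markers. The adipocyte (89.0 to 1422), smooth muscle (806 to 4764) and glial and neuronal lists (68.0 to 2094) were higher. They moved between lines. In Q133H at 48 h the smooth muscle sum was 806 to 920 against 2734 to 3074 in wildtype. The adipocyte sum there was 509 to 670 against 139 to 158. In Q133H at 0 h the glial and neuronal sum was 68.0 to 145 against 834 to 1124. Other lines moved too. In +EMD at 48 h the glial and neuronal sum was 810 to 1291 against 78.0 to 163 in wildtype. In EMD-/y at 0 h the adipocyte sum was 313 to 507 against 595 to 1422. The part of these lists in the results was not tested.

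The 3 libraries of a group were not equally far apart. The 2 libraries of a group with the smallest difference were taken as its closest pair, so each group has such a pair by construction. The root mean square log2 difference of the pairs was 0.126 to 0.246 over 10421 genes. The library apart differed from its nearer partner by 0.210 to 0.616. No pair was as close as sampling noise would make it, since the chi-square per gene was 1.99 to 10.5. In S54F at 48 h the choice was unclear, with a difference of 0.246 in the pair and 0.267 for the library apart. The chi-square per gene there was 10.5 in the pair and 10.2 at the lowest for the library apart. The labels give 3 technical replicates for each biological replicate with n = 2, and do not say which library belongs to which. The p-values below thus measure a spread between libraries that may be technical in part or in full. If all 3 libraries of a group came from 1 biological replicate, no test here measures biological spread. Each construct was carried by 1 line, so the emerin form and other traits of its line cannot be told apart. At 0 h the library apart departed from its pair in a like direction in wildtype, EMD-/y, S54F, Δ95–99 and Q133H, with Pearson correlations of 0.277 to 0.635 across genes, which are not independent replicates. At 24 h it did so in wildtype, EMD-/y and S54F (0.516 to 0.752), while Q133H had negative values with these 3 (-0.371 to -0.283). For each call of the 4 genes the test was therefore repeated with the closest pair summed and counted as 1 replicate. Its adjusted p is given below wherever the call is lost. Single genes named from the lists further below are given by the size of their change, without the outcome of that repeat. A gene was called where the adjusted p of limma, over all genes tested, was under 0.05 and the change was at least 2-fold. Of 196 values for the 4 genes over 49 comparisons 46 were called, and 34 of these remained with the closest pair as 1 replicate. Values given with the closest pairs alone rest on libraries chosen for a small difference, so only their size is read. All comparisons with wildtype share its libraries, and all those with +EMD share the +EMD libraries.

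**Figure D1:**
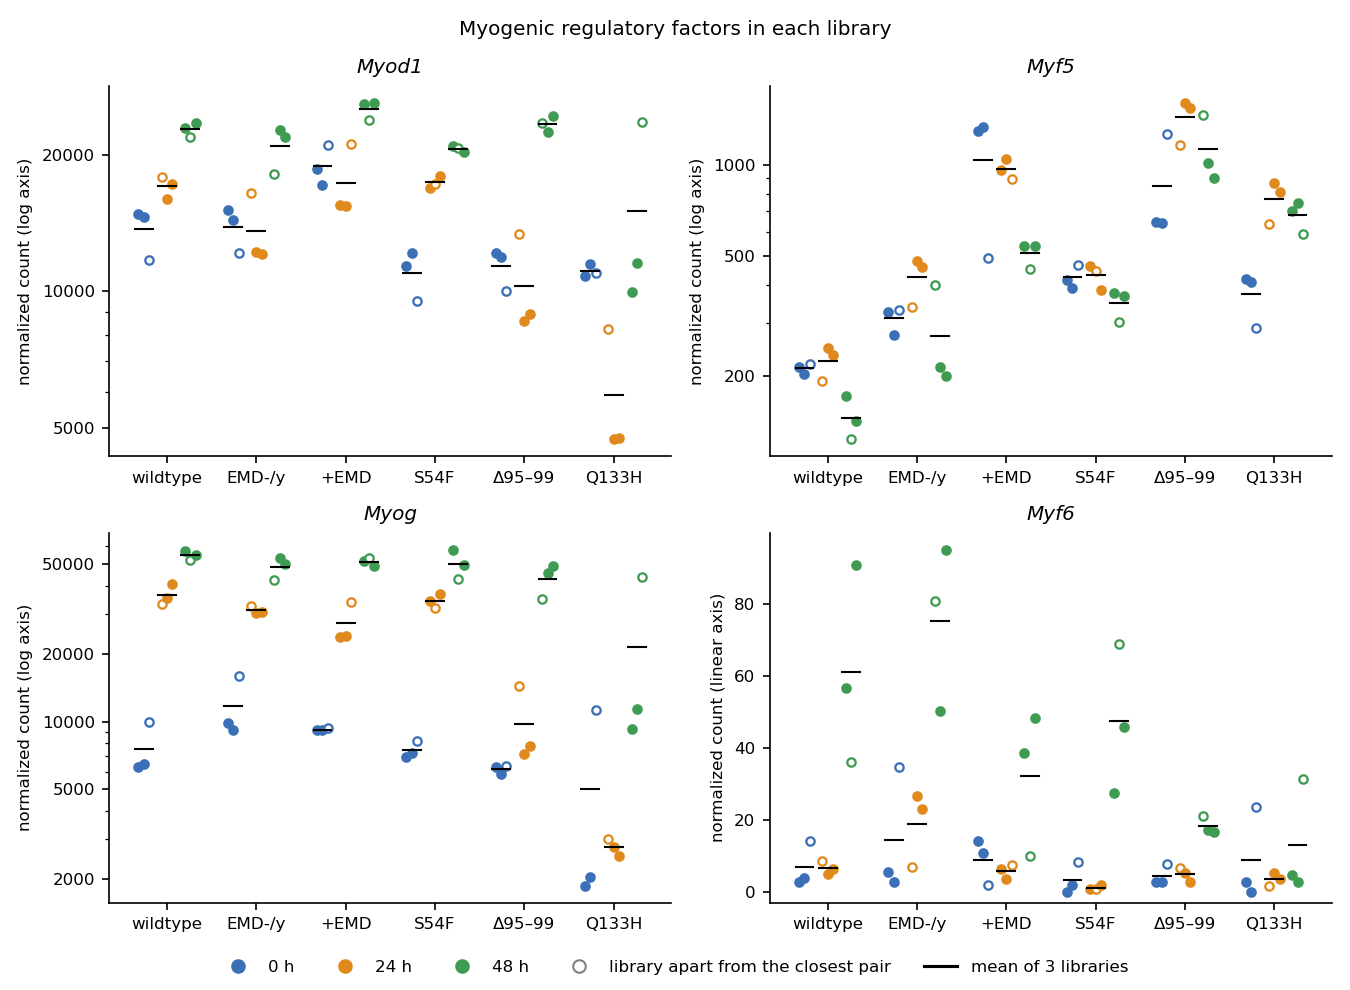
Normalized counts of Myod1, Myf5 and Myog (log axes) and Myf6 (linear axis) in each of the 54 libraries, by line on the x axis and coloured by hours of differentiation. Filled points are the closest pair of a group, open points the library apart and black bars the mean of 3. The Myog panel shows 24 h points far above 0 h points in wildtype, EMD-/y, +EMD and S54F but at 2535 to 3023 in Q133H.

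Myod1, the determination factor that gives its name to the family, was abundant in every group, and its group means covered 4.29-fold. In wildtype it read 14790, 14630 and 11720 at 0 h, 17920, 15980 and 17290 at 24 h and 22970, 21920 and 23600 at 48 h. Each day lay above the one before with no overlap of libraries, yet neither step passed the test, with log2 fold changes of 0.32 (95% interval -0.07 to 0.71) and 0.42 (0.03 to 0.81). Q133H read 10830, 11510 and 10970 at 0 h and fell to 8260, 4709 and 4747 at 24 h, the lowest 3 readings of the gene in the study. These libraries all lay below those of wildtype at 24 h, and the log2 fold change against wildtype was -1.58 ± 0.20 (SE, n = 3, limma adjusted p = 8.2e-09).

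At 48 h Q133H read 9947, 11540 and 23650, so the library apart lay at the level of wildtype and the pair did not. The log2 fold change of -0.71 against wildtype missed the 2-fold limit, and -1.12 with the pairs alone passed it. Within Q133H, Myod1 rose from 24 to 48 h by 1.29 ± 0.20 on the log2 scale (adjusted p = 1.2e-06), or by 0.91, below the 2-fold limit, without the library apart at 48 h. Δ95–99 read 13370, 8612 and 8893 at 24 h and 23570, 22490 and 24400 at 48 h. It was lower than wildtype at 24 h by a log2 fold change of -0.76 ± 0.19, short of 2-fold, and it rose by 1.22 ± 0.19 to 48 h (adjusted p = 2.0e-06). In EMD-/y, +EMD and S54F no difference from wildtype reached 2-fold on any day, and the widest interval bounds in these 9 comparisons were -0.73 and 0.86.

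In order of the group means of Myod1, +EMD at 48 h stood highest at 25310 ± 1218 (SD, n = 3), followed by Δ95–99 and wildtype at 48 h, and Q133H at 24 h stood lowest at 5905 ± 2039. Of the 17 pairs of neighbours in that order 16 overlapped in their libraries, and the pair that did not was the lowest.

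Myf5, which acts beside MyoD in progenitors, was a low-level gene in wildtype and higher in the other lines. In wildtype it read 214.0, 203.0 and 218.9 at 0 h, 191.7, 247.0 and 233.7 at 24 h and 171.1, 123.4 and 142.1 at 48 h. All libraries of each other line lay above those of wildtype on the same day. The test called 9 of these 15 differences, all higher, and 8 of them remained with the closest pair as 1 replicate.

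Δ95–99 had the highest Myf5 of any line at 24 and 48 h. It read 648.3, 643.4 and 1262 at 0 h, 1164, 1601 and 1542 at 24 h and 1455, 1013 and 901.2 at 48 h. Against wildtype the log2 fold changes were 1.92 ± 0.30, 2.67 ± 0.29 and 2.92 ± 0.36 (limma adjusted p = 3.2e-06, 8.9e-10 and 8.0e-09). In +EMD the gene read 1292, 1335 and 491.9 at 0 h, 961.1, 1042 and 893.6 at 24 h and 536.0, 452.3 and 538.6 at 48 h, and the library apart at 0 h stood well below its pair. The log2 fold changes of +EMD against wildtype were 2.16 ± 0.30, 2.11 ± 0.30 and 1.81 ± 0.38 (adjusted p = 1.6e-07, 1.5e-07 and 0.0001). High Myf5 was thus found also in the line with wildtype emerin.

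Q133H read 418.0, 408.3 and 289.0 at 0 h, 636.6, 868.4 and 809.5 at 24 h and 702.5, 745.8 and 589.6 at 48 h. Its Myf5 was higher than wildtype at 24 h by 1.78 ± 0.30 and at 48 h by 2.22 ± 0.36 on the log2 scale (adjusted p = 3.5e-06 and 1.3e-06), and 0.79 ± 0.33 at 0 h missed the 2-fold limit. Q133H was the only line in which a first-day rise of Myf5 was called, at 1.05 ± 0.27 (adjusted p = 0.0014). Without the 0 h library apart or without 1 library of the 24 h pair the change dropped to as little as 0.89 and lost the call. In Δ95–99 the first-day change was 0.82 ± 0.23 (adjusted p = 0.0031). It missed the 2-fold limit, and 1.28 with the closest pairs alone passed it. S54F read 302.3 to 464.9 over its 9 libraries. Its log2 fold changes of 0.99 at 0 h and 0.95 at 24 h passed the p threshold (adjusted p = 0.015 and 0.016) and just missed the 2-fold limit, and the call was at 48 h, with 1.26 ± 0.39 (adjusted p = 0.012, or 0.12 with the closest pair as 1 replicate), a call that 1.15 without the wildtype library apart at 48 h also lost. EMD-/y read 199.6 to 478.4, with log2 fold changes against wildtype of 0.54, 0.92 and 0.84 that were not called, the second for its size (adjusted p = 0.043) and the others also for their p. From 24 to 48 h the log2 values of Myf5 were -0.18 to -0.93 over the 6 lines, and none reached 2-fold.

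The group means of Myf5 ran from 145.5 ± 24.0 in wildtype at 48 h to 1436 ± 237 in Δ95–99 at 24 h, a 9.87-fold span, and the 3 wildtype groups took the 3 lowest places. Of the 17 neighbouring pairs 15 overlapped.

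Myog, the factor of commitment, read 6294, 6473 and 9962 at 0 h, 33210, 35280 and 40960 at 24 h and 57310, 51990 and 54900 at 48 h in wildtype. The day groups did not overlap. The first step was 2.29 ± 0.39 on the log2 scale (limma adjusted p = 3.4e-06), and the second, 0.59 ± 0.38, was not called. S54F followed closely, from 6961, 7237 and 8175 to 34430, 31810 and 36890 in the first day, a log2 fold change of 2.21 ± 0.39 (adjusted p = 1.0e-05). +EMD went from 9162, 9132 and 9341 to 23800, 23930 and 34130, or 1.54 ± 0.39 (adjusted p = 0.00097). EMD-/y went from 9878, 9152 and 15980 to 32720, 30440 and 30680, or 1.47 ± 0.39 (adjusted p = 0.0013, or 0.053 with the closest pair as 1 replicate, which loses the call).

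Δ95–99 started from 6285, 5867 and 6345 at 0 h and read 14420, 7173 and 7753 at 24 h. The 24 h libraries lay above those of 0 h, but the change in the first day, 0.59 ± 0.39, was not called, and its 24 h libraries all lay below those of wildtype, with a log2 fold change of -1.97 ± 0.39 (adjusted p = 4.2e-05). By 48 h it read 34930, 45540 and 49070, a rise of 2.20 ± 0.39 over 24 h (adjusted p = 1.0e-05), and the difference from wildtype was then -0.36 (95% interval -1.13 to 0.42) and not called.

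Q133H read 1861, 2037 and 11210 at 0 h, and here the pair and the library apart gave different answers. The pair was the lowest Myog of the study, while the library apart lay above every wildtype library of that day. The log2 fold change of -1.09 ± 0.40 against wildtype was called (adjusted p = 0.027), but not with the closest pair as 1 replicate (adjusted p = 0.36), nor when either library of the Q133H pair or the wildtype library apart was left out, and the values without 1 library ran from -1.93 to -0.63. At 24 h the libraries were close together at 3023, 2784 and 2535, and all lay far below the wildtype libraries. That difference, -3.71 ± 0.39 (adjusted p = 2.2e-10), was the largest of all 196 values other than that of Myf6 in S54F between 24 and 48 h, and ran from -3.77 to -3.62 without any 1 library. At 48 h Q133H read 9251, 11350 and 43950. The rise from 24 h was 2.58 ± 0.39 (adjusted p = 1.3e-06) and the difference from wildtype -1.72 ± 0.39 (adjusted p = 0.00015), both called also with the closest pair as 1 replicate, at a log2 value of -1.35 for the latter. Without the library apart at 48 h they were 1.88 and -2.42, and without 1 library of the pair as far as 3.01 and -1.29, all still called.

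**Figure D2:**
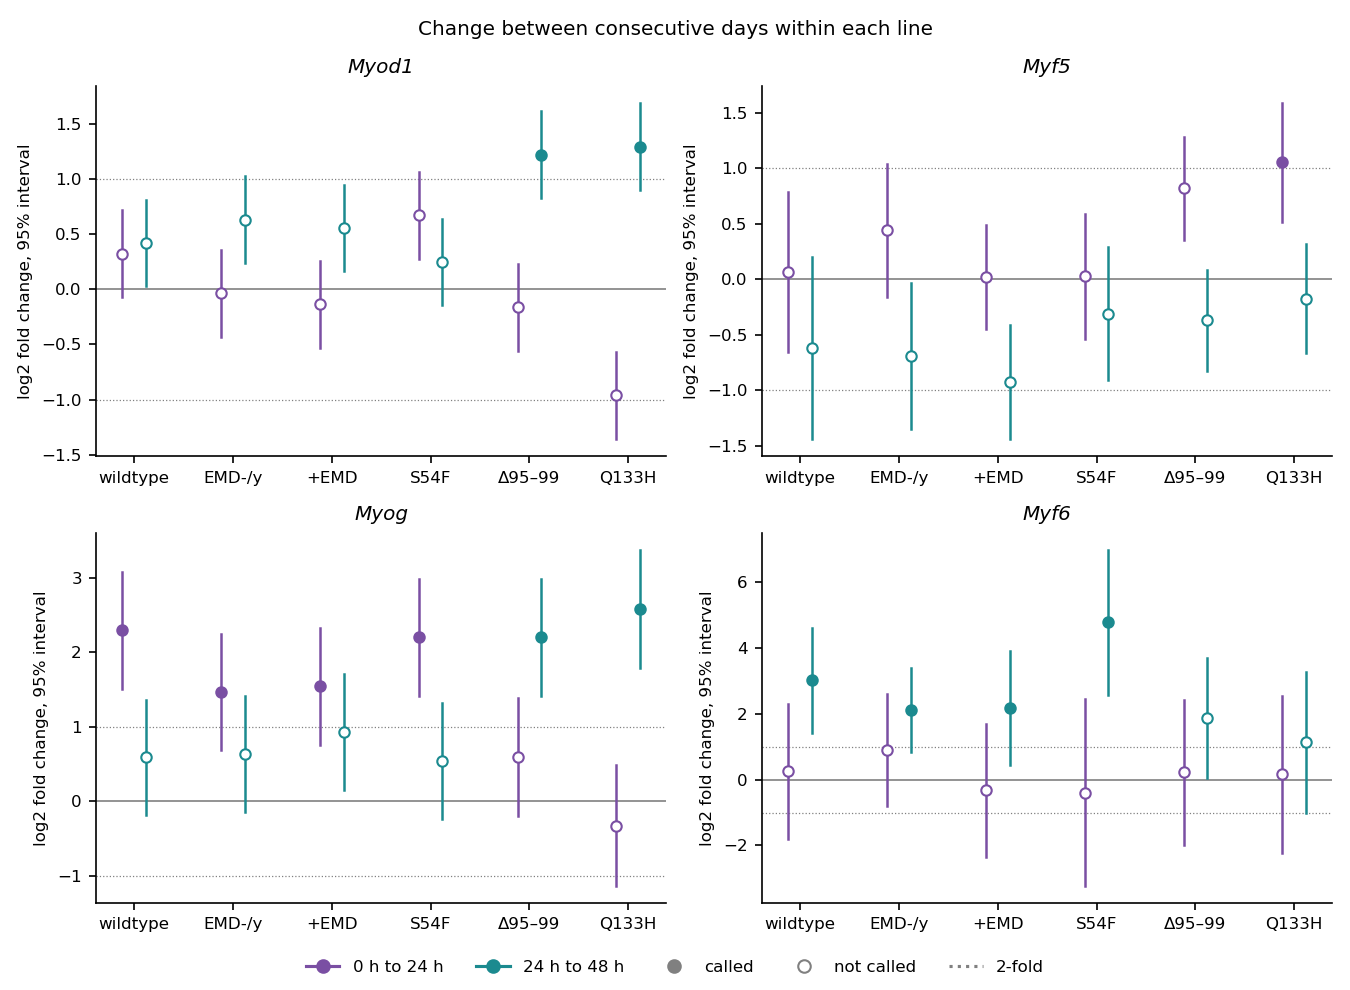
Log2 fold changes of each factor from 0 to 24 h and from 24 to 48 h within each line, with 95% intervals, filled where called and with dotted lines at 2-fold. For Myog the called step is the first in wildtype, EMD-/y, +EMD and S54F (1.47 to 2.29) and the second in Δ95–99 and Q133H (2.20 and 2.58).

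Whether these steps differed from those of wildtype was tested directly, as the change of a line minus the change of wildtype. For Myog from 0 to 24 h this difference was -2.62 ± 0.56 in Q133H (limma adjusted p = 0.00025) and -1.70 ± 0.55 in Δ95–99 (adjusted p = 0.017, or 0.27 with the closest pair as 1 replicate). From 24 to 48 h it was 2.00 ± 0.55 in Q133H (adjusted p = 0.0036) and 1.61 ± 0.54 in Δ95–99 (adjusted p = 0.022, or 0.28 with the closest pair as 1 replicate). Without 1 library of the Δ95–99 pair at 24 h these 2 values were -1.51 and 1.42 and lost the call, and without the other library of that pair the second was 1.48 and lost it. The later rise of Myog thus passed the test of the difference under both treatments of the replicates in Q133H, and in Δ95–99 under 1 of them. In Q133H the sizes rested in part on the library apart, as the first difference was -1.78 without that of 0 h and the second 1.29 without that of 48 h, both still called. For Myod1 the first step of Q133H differed from that of wildtype by -1.28 ± 0.28 (adjusted p = 0.00028). These were the 5 called of 40 such values. The share of all genes called was 0.244% and 0.17% for the first and second step in EMD-/y, 7.52% and 7.75% in +EMD, 4.92% and 1.59% in S54F, 10.2% and 9.84% in Δ95–99 and 16.6% and 13.9% in Q133H. No member was called in EMD-/y, +EMD or S54F, where the 95% intervals for Myog reached from -1.94 to 1.43.

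Myf6, the late factor, was barely detected before 48 h. In wildtype it had 3, 4 and 14 counts at 0 h, 9, 5 and 6 at 24 h and 51, 31 and 78 at 48 h. The last step was a log2 fold change of 3.03 ± 0.79 (limma adjusted p = 0.0012). It was called also in EMD-/y, from 7, 26 and 22 counts to 69, 43 and 71 (2.13 ± 0.63, adjusted p = 0.0041), and in +EMD, from 7, 4 and 8 counts to 35, 9 and 43 (2.17 ± 0.86, adjusted p = 0.029, or 0.18 with the closest pair as 1 replicate). The call in +EMD was lost also without any of 5 single libraries, at 1.76 to 2.37. In S54F the counts went from 1, 1 and 2 to 24, 59 and 39, with a fitted value of 4.79 ± 1.09 (adjusted p = 0.00026) that depends on how so few counts are handled.

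Δ95–99 had 22, 18 and 17 Myf6 counts at 48 h, above its 8, 6 and 3 at 24 h, and Q133H had 5, 3 and 32. The pair of Q133H at 48 h lay within the 2 to 6 counts of Q133H at 24 h and the library apart lay above them, and neither step was called. Against wildtype at 48 h Myf6 was lower in Q133H by a log2 value of -2.84 ± 0.75 (adjusted p = 0.0010) and in Δ95–99 by -1.62 ± 0.62 (adjusted p = 0.025, or 0.14 with the closest pair as 1 replicate). The call in Δ95–99 was lost also without any of 3 single libraries, at -1.58 to -1.29. All 17 neighbouring groups in the order of Myf6 means overlapped. At 24 h all S54F libraries lay below those of wildtype and +EMD, at values that were not called (-2.13 and -1.90, adjusted p = 0.17 and 0.25), and no comparison at 0 or 24 h called Myf6.

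**Figure D3:**
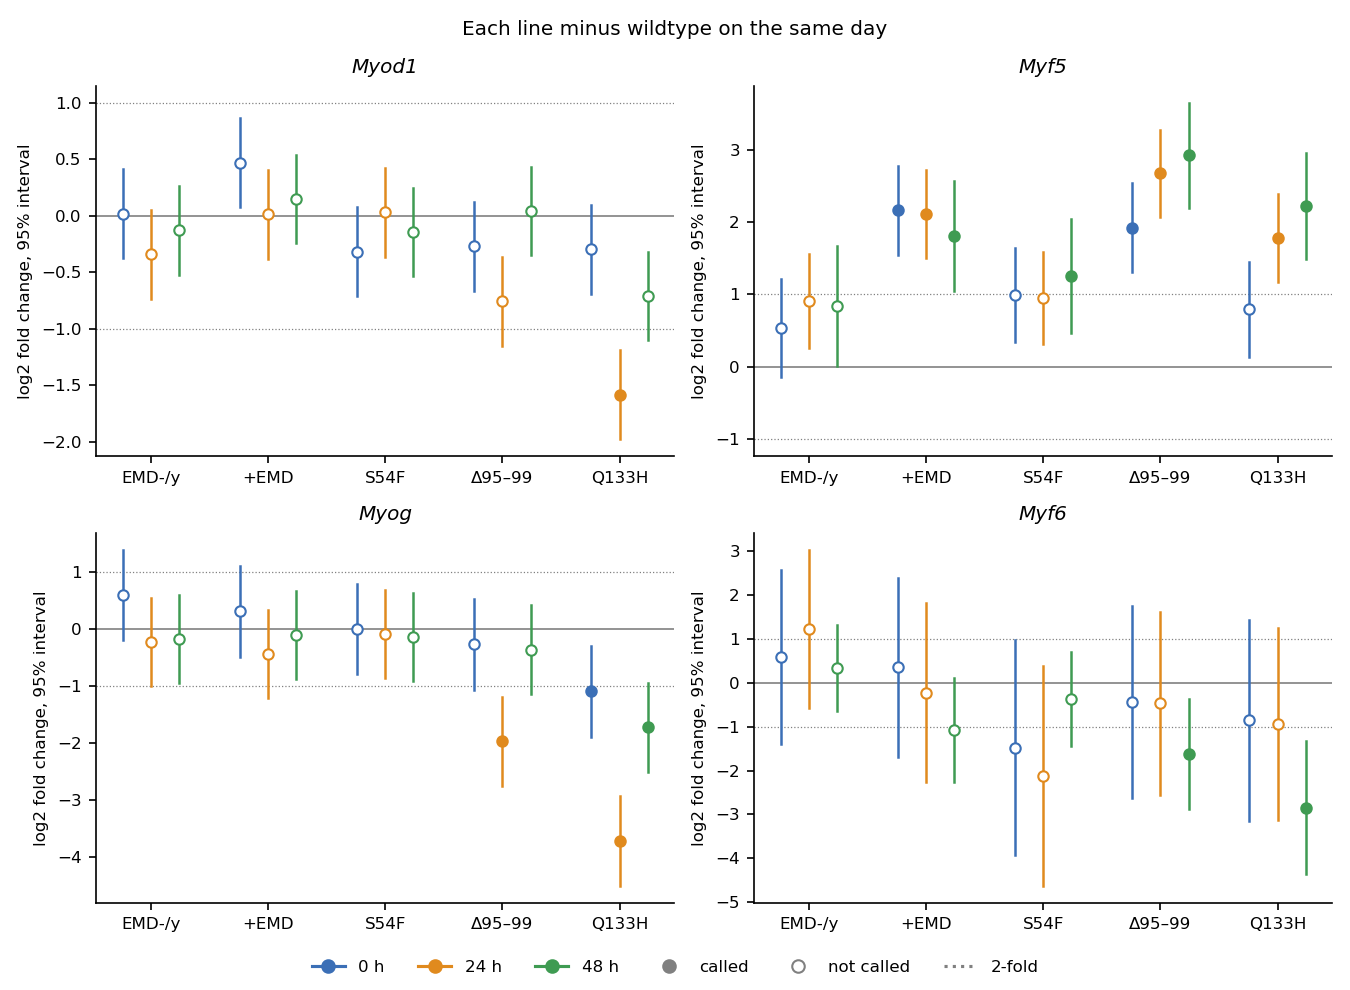
Log2 fold changes of each factor in 5 lines against wildtype on the same day, with 95% intervals, filled where called and with dotted lines at 2-fold. Myf5 lies above 0 in all 15 comparisons, and Myog at 24 h lies at -3.71 in Q133H and -1.97 in Δ95–99.

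Against wildtype 16 of 60 member values were called, 9 higher and 7 lower. All 9 higher calls were Myf5, and the lower calls were 4 of Myog, 2 of Myf6 and 1 of Myod1. The background differed widely between lines. The share of all tested genes called against wildtype at 0, 24 and 48 h was 7.84%, 6.74% and 6.74% in EMD-/y, 16.3%, 19.2% and 18% in +EMD, 11.5%, 11.8% and 10.1% in S54F, 11.6%, 21.0% and 22.0% in Δ95–99 and 14.2%, 24.2% and 32.8% in Q133H. At 24 h 3 of the 4 members were called in Q133H, and at 48 h 3 of 4 as well, against 1 of 4 in +EMD on each day and 0 of 4 in EMD-/y on each day. With 4 genes, a count of 0 in EMD-/y is not set apart from a background of 6.74% to 7.84%. Between days 13 of 48 member values were called, all higher on the later day. The background for the first and second step was 22.6% and 19.4% of genes in wildtype, 21.8% and 18.8% in EMD-/y, 16.8% and 19.8% in +EMD, 16.3% and 19.6% in S54F, 13.7% and 14.4% in Δ95–99 and 11.1% and 10.4% in Q133H.

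Read per length, which allows the 4 genes to be compared with each other, Myod1 and Myog made up nearly all of the mRNA of the family. At 0 h in wildtype Myod1 took 59.2% and Myog 39.9% of the summed level per kilobase, and at 48 h Myod1 took 25.4% and Myog 74.4%. The ratio of Myog to Myod1 per kilobase went from 0.700 ± 0.294 (SD, n = 3) at 0 h to 2.62 ± 0.32 at 24 h in wildtype. EMD-/y, S54F and +EMD reached 2.85 ± 0.38, 2.41 ± 0.14 and 1.91 ± 0.05 at 24 h, while Δ95–99 stood at 1.13 ± 0.16 and Q133H at 0.607 ± 0.143. Myf5 took 0.143% to 0.806% in wildtype but 5.38% in Δ95–99 and 6.81% in Q133H at 24 h. Myod1 was 87.8 ± 16.7 times as high as Myf5 in wildtype at 24 h, 8.56 ± 3.88 times in Δ95–99 and 9.18 ± 4.81 times in Q133H. Myf6 took at most 0.139% in any group. The summed level of the 4 factors was lowest in Q133H at 24 h, at 5387 per kilobase, against 33340 in wildtype.

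**Figure D4:**
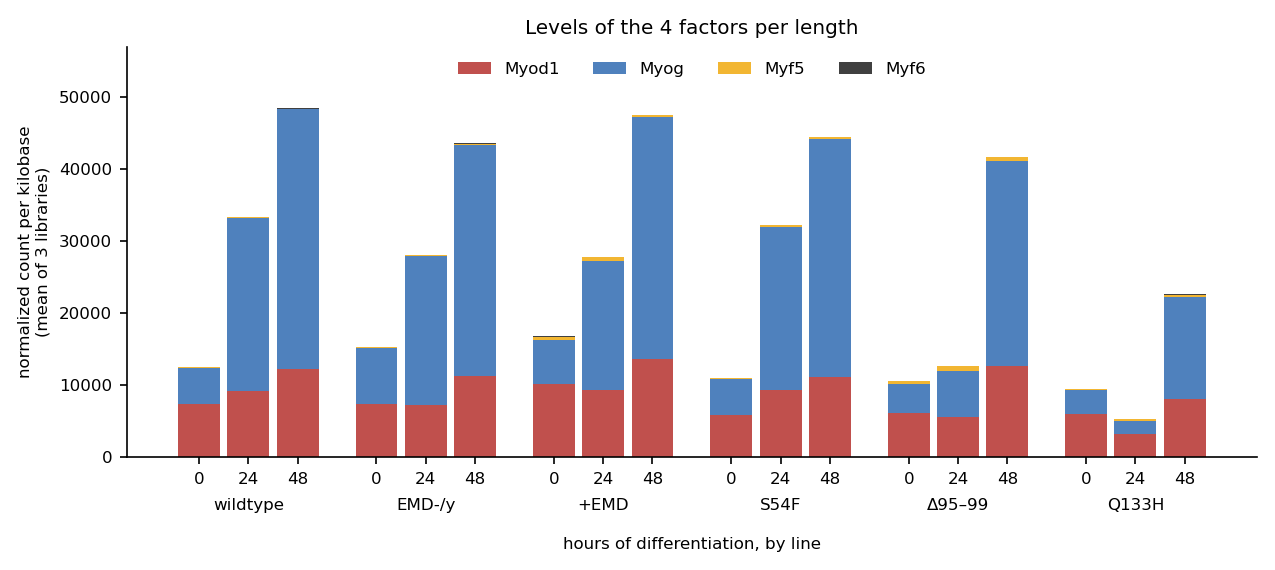
Stacked mean levels per kilobase of the 4 factors in 18 groups, by hours within each line, with the y axis in normalized counts per kilobase. Myog makes up most of the height from 24 h on in wildtype, EMD-/y, +EMD and S54F, and the Q133H column at 24 h is the lowest at 5387.

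The +EMD line shares the transduction and the drug selection of the mutants, so the members were compared with it too. Here 12 of 48 values were called, and 7 remained with the closest pair as 1 replicate. Of all genes, 11%, 14.5% and 12.5% were called in EMD-/y at 0, 24 and 48 h, 8.83%, 7.56% and 11.1% in S54F, 7.46%, 9.08% and 11.5% in Δ95–99 and 15.3%, 18.4% and 29.3% in Q133H. Myog at 24 h was lower than in +EMD in Q133H by -3.28 ± 0.39 on the log2 scale (limma adjusted p = 5.6e-09) and in Δ95–99 by -1.53 ± 0.39 (adjusted p = 0.0024, or 0.093 with the closest pair as 1 replicate). At 0 and 48 h Q133H was lower by -1.40 and -1.62 (adjusted p = 0.0035 and 0.00034, or 0.19 and 0.060 with the closest pair as 1 replicate), and the 0 h call was lost also without either library of the Q133H pair, at -0.95 or -1.01. Myod1 at 24 h was lower in Q133H by -1.59 ± 0.20 (adjusted p = 9.5e-09). The low Myog and Myod1 of Q133H at 24 h were thus found against either reference line.

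Myf5 behaved differently against +EMD. It was lower than in +EMD at 0 h in EMD-/y (-1.62 ± 0.27, adjusted p = 1.1e-05), Q133H (-1.37 ± 0.26, adjusted p = 4.4e-05) and S54F (-1.17 ± 0.26, adjusted p = 0.00054, or 0.071 with the closest pair as 1 replicate, and lost at -0.95 or -0.93 without either library of the +EMD pair), and at 24 h in EMD-/y and S54F by -1.20 and -1.17. It was higher in Δ95–99 at 48 h, by 1.11 ± 0.25 (adjusted p = 0.00057), a call that was lost at 0.91 without the Δ95–99 library apart. Q133H at 24 and 48 h did not pass the test against +EMD, with values of -0.33 (95% interval -0.81 to 0.14) and 0.41 (-0.12 to 0.94). Myf6 in EMD-/y at 48 h was called higher than in +EMD by 1.42 ± 0.57 (adjusted p = 0.041, or 0.17 with the closest pair as 1 replicate), a call that was lost also without any of 4 single libraries, at 0.73 to 1.68.

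The genes around the 4 factors were read as lists. For each, the counts of genes called higher and lower stand beside the median log2 fold change, and over all genes tested the median lay near 0. In wildtype during the first day 41 of 43 late contractile targets rose (median 2.65), 20 of 22 early targets rose (2.11), the 3 tested Mef2 genes rose (1 with the closest pair as 1 replicate) and 3 of 4 Id genes fell. From 24 to 48 h 42 contractile genes rose again, and all 13 cell cycle genes fell. In whole-culture RNA a smaller share of differentiating cells and less RNA in each such cell cannot be told apart.

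In Q133H at 24 h 42 of 43 contractile targets were lower than in wildtype (median -4.61) and 19 of 22 early targets were lower (-2.09), and with the closest pair as 1 replicate 41 and 19 of these calls remained. Acta1, skeletal actin, was lower by a log2 value of -4.40 and Myh3, embryonic myosin heavy chain, by -5.35, while Mymk (myomaker, required for myoblast fusion) was lower by -4.96. Cdkn1a, the cell cycle inhibitor p21, was not called at -0.88. Δ95–99 at 24 h had 41 contractile targets lower (median -3.70) and 15 early targets lower (-1.41), with Acta1 at -3.45 and Myh3 at -4.14. At 48 h 34 contractile targets were lower in Δ95–99 (median -1.50, 22 with the closest pair as 1 replicate) and 42 in Q133H (-3.69, 41 with the closest pair as 1 replicate). Myog in Q133H at 48 h was 3.29-fold lower than in wildtype. The summed contractile level at 48 h was 123300, 153600 and 568200 in the Q133H libraries against 1753000 to 2045000 in wildtype. Acta1 read 16680, 21080 and 105200 there, and its high reading came from the same library apart that was high in Myog, Myod1 and Myf6.

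+EMD also had 33 contractile targets lower than wildtype at 24 h (median -1.52, 22 with the closest pair as 1 replicate), at a Myog level that was not called different, and S54F had 11 (median -0.89, 4 with the closest pair as 1 replicate). In EMD-/y 1 to 3 of the 43 tested contractile genes were called higher and 1 lower on each day, beside 6.74% to 7.84% of all genes. Such small counts are not set apart from that background. Compared with +EMD at 24 h, Q133H had 33 contractile targets lower (median -2.86, 25 with the closest pair as 1 replicate) and Δ95–99 31 (-2.14, 11 with the closest pair as 1 replicate).

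The Mef2 partners were lower too. Mef2a, Mef2c and Mef2d were all lower than wildtype at 24 h in Q133H, by log2 values of -2.18, -3.76 and -1.15, and in Δ95–99, by -1.36, -5.50 and -1.03. In +EMD, the line with wildtype emerin, Mef2c was lower by -4.87 and Mef2d by -1.05 at 24 h, and Mef2c was lower already at 0 h in +EMD (-3.23) and Δ95–99 (-2.26). Mef2b was near 0 throughout, with group means of at most 2.01, and was not tested. The E proteins that pair with the 4 factors moved little. Of Tcf3, Tcf4 and Tcf12 the only call against wildtype on any day was Tcf3 in +EMD at 48 h (1.02), and at 24 h in Q133H they stood at 0.35, -0.89 and -0.69.

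The Id genes went the other way. At 48 h all 4 were called higher than wildtype in Q133H, +EMD and Δ95–99. In Q133H Id1 was higher by 2.46, Id2 by 2.05, Id3 by 3.32 and Id4 by 3.89 on the log2 scale, and in Δ95–99 by 2.79, 2.78, 3.01 and 2.58. At 24 h 3 of 4 were higher in Q133H, Id2 by 1.89, Id3 by 1.09 and Id4 by 2.49, with Id1 not called at 0.44. Id4 remained a low-level gene, at 97.7 normalized counts in Q133H at 48 h. S54F had 3 higher at 48 h and EMD-/y 0. Of the 13 cell cycle genes, all were higher than wildtype at 48 h in +EMD and Δ95–99 (medians 3.79 and 3.66) and 12 in Q133H (2.66), against 4 in EMD-/y and 5 in S54F, of which 1 each remained with the closest pair as 1 replicate. Among them were Mki67, a proliferation marker, at 5.20, 5.00 and 3.41 in the first 3 lines. In +EMD they were thus high at 48 h beside a Myog level within -0.87 to 0.68 of wildtype on the log2 scale. Ccnd1, the D-type cyclin that with Cdk4 holds MyoD inactive, was higher than wildtype by 3.45 in Q133H and 2.58 in Δ95–99 at 48 h.

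**Figure D5:**
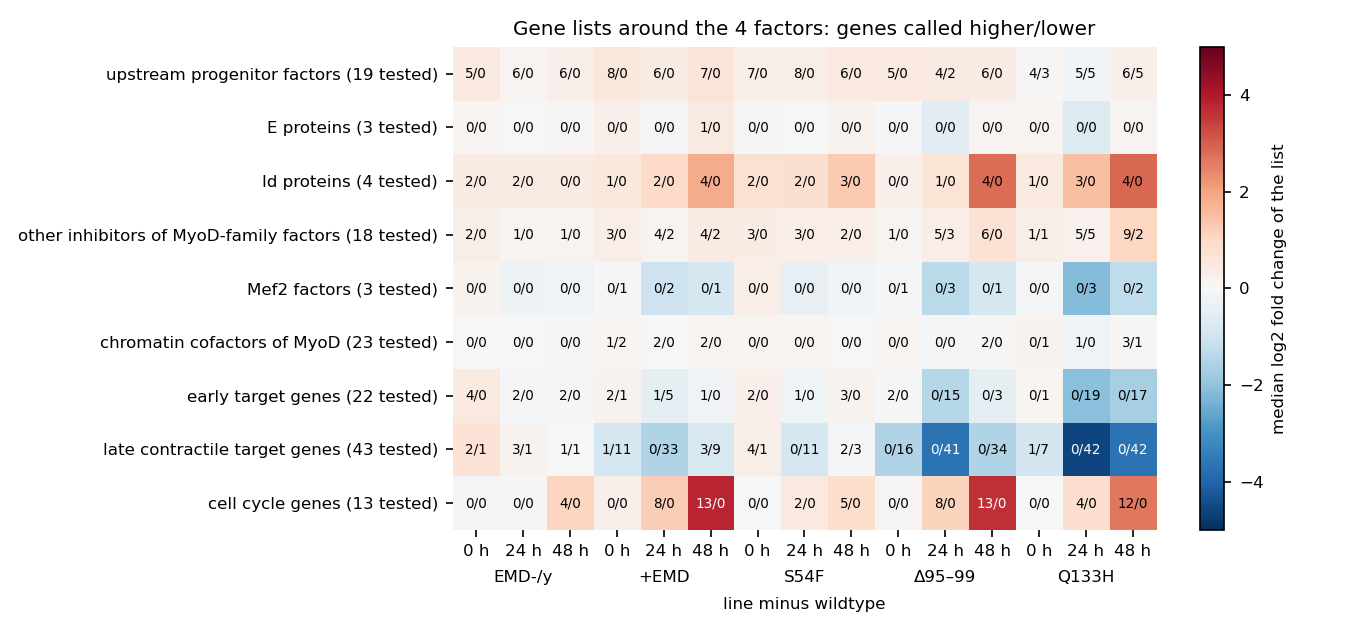
Median log2 fold change against wildtype of 9 gene lists (rows) in 5 lines on 3 days (columns), as colour, with the number of genes called higher and lower in each cell. The contractile row reads 0/42 in Q133H and 0/41 in Δ95–99 at 24 h, and the cell cycle row 13/0 in +EMD and Δ95–99 at 48 h.

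Of 19 tested upstream factors of the family 4 to 8 were called higher than wildtype in each line on each day, and 3 to 5 were called lower in Q133H. The share of all genes called against wildtype ran from 6.74% in EMD-/y at 24 h to 32.8% in Q133H at 48 h. Like counts thus stand against different backgrounds. Eya4 was called lower at 24 h in Q133H (-1.57) and Δ95–99 (-1.42). The 23 chromatin cofactors of MyoD had at most 3 called higher and 2 lower in any comparison with wildtype, with medians of -0.17 to 0.18. Suv39h1, a histone methyltransferase that binds MyoD, was called higher at 48 h in Q133H (1.38), +EMD (1.27) and Δ95–99 (1.19), and at 24 h in Q133H (1.07) and +EMD (1.05). Other inhibitors of the family were mixed, with 5 higher and 5 lower of 18 tested in Q133H at 24 h. In that comparison 24.2% of all genes were called.

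The genes whose group means followed each factor most closely over the 18 groups were listed among 12131 genes, as a description. For Myog they were Cbfa2t3 (Pearson r = 0.988), Ppfia4 (0.985), Rbm24 (0.984), Arpp21 (0.983) and Zbtb18 (0.982). Each of these had its lowest mean in Q133H at 24 h, as Myog did. For Myod1 they were Dok7 (0.918), Zfp568 (0.914), Tmem252 (0.913), Ank1 (0.910) and Sik1 (0.910). Dok7 codes for a protein of the neuromuscular junction. For Myf5 they were Aprt (0.927), Trmt1 (0.927), Mak16 (0.917), Rpusd2 (0.904) and Exoc8 (0.902), with their lowest means in wildtype. For Myf6 they were Vamp1 (0.912), Myadml2 (0.902), Cmya5 (0.900), Ddx3y (0.898) and Stk40 (0.897). Among the factors themselves Myod1 and Myog went together (r = 0.870), while Myf5 had negative values with the other 3 (-0.248 to -0.400). The 18 groups share 6 cultured lines, so they are not 18 independent points.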

How the data were processed

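Poly-A RNA of 54 libraries was sequenced, aligned to mm10 with HISAT2 and analysed with DESeq2, per the labels and the methods of the authors. The 27 deposited tables hold, for each gene, 2 signal values that the authors made, 1 per group and moderated between the groups, together with their log2 fold changes and p-values for each comparison, which were not used. No table holds counts. The 2 signal values of a gene sum to its 6 library counts times fixed weights, and the whole counts of all 54 libraries were solved from these sums. At least 99.641% of sums in tables left out of the solution were predicted from it. Which replicate number a library had was not recovered, so the numbers 1 to 3 are arbitrary. The tests planned for group values were replaced by tests on counts for this reason.

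Counts were scaled by median-of-ratios size factors (0.746 to 1.21). Genes with at least 10 counts in at least 3 libraries were tested with limma 3.58.1 (voom, R 4.3.3) in 1 fit over 18 groups, two-sided, with Benjamini-Hochberg adjustment over the 14727 genes. Calls needed an adjusted p under 0.05 and a log2 fold change of at least 1. Intervals are 95%. The scripts were tested on simulated data. Levels per kilobase used annotated gene lengths. Alternatives covered scaling, filters, thresholds, single libraries and, chosen after seeing the data, the closest pairs. Of a list with over 6 genes the 4 with the highest mean level were those to be named, of a shorter list all, and of the pattern search the 5 with the highest Pearson r. Some upstream factors are not reported here. The members and lists were chosen with earlier results of these data known.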

Additional observations from a re-analysis of the deposited data

Results flagged for a closer look

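A change between days that differed from that of wildtype, by the test of the difference itself (limma, adjusted p under 0.05 and at least 2-fold), was found for 5 values. All are on the log2 scale, as the change of the line minus the change of wildtype, with 3 libraries in each group. For Myog in Q133H the difference was -2.624 ± 0.558 (SE, adjusted p = 0.00025) from 0 to 24 h and 1.995 ± 0.550 (adjusted p = 0.0036) from 24 to 48 h. For Myod1 in Q133H it was -1.284 ± 0.277 (adjusted p = 0.00028) from 0 to 24 h. These 3 kept their call with the closest pair of libraries as 1 replicate (adjusted p = 0.015, 0.045 and 0.033). For Myog in Δ95–99 it was -1.702 ± 0.552 (adjusted p = 0.017) from 0 to 24 h and 1.611 ± 0.545 (adjusted p = 0.022) from 24 to 48 h, and both lost their call with the closest pair as 1 replicate (adjusted p = 0.27 and 0.28).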

How the results depend on the processing

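No paired analysis was possible because the recovered counts carry no replicate number. No called value changed sign under any alternative. Of 3547 member values, counted once for each alternative, 102 changed sign, all of them for differences that were not called. With no fold threshold the calls went from 16 to 23 against wildtype and from 13 to 20 between days. At an adjusted p under 0.01 there were 13 against wildtype and 3 of 5 differences of changes. With the closest pair summed as 1 replicate, 13 of 16 calls against wildtype, 3 of 5 differences of changes and 7 of 12 calls against +EMD remained. With the closest pairs alone there were 19 against wildtype, 9 differences of changes and 19 against +EMD. The pairs were chosen in these same data for a small difference, which lowers the spread in that fit. Its higher counts are therefore no support for the added calls. Without 1 library at a time the counts ran from 15 to 17 against wildtype, 12 to 14 between days, 3 to 7 for differences of changes and 11 to 14 against +EMD, with the 3 reached without 1 library of the Δ95–99 pair at 24 h and the 7 without the Q133H library apart at 24 h. Scaling by library totals moved the median of all genes by -0.31 to 0.24 and upper-quartile scaling by -0.03 to 0.06 on the log2 scale. Under library totals 1 called value, Myf6 in EMD-/y against +EMD at 48 h, lost its call. Tests on group values alone were not run because the counts were recovered. Depth limits Myf6, which had 0 to 78 counts in a library.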
